A study of Homo sapiens with 36 samples.

Results

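CYP1B1 and 5 other genes of the aryl hydrocarbon receptor (AHR) pathway were followed across 2 human acute myeloid leukaemia (AML) cell lines treated with the compound A9. The genes are the receptor AHR, its partner ARNT, its repressor AHRR, the feedback gene TIPARP and the target genes CYP1A1 and CYP1B1. They were taken by symbol, as 6 of the 35460 genes to which the deposited transcript values could be summed. The list was selected on a measured pattern, namely that CYP1B1 was higher with A9 than with vehicle in MONO-MAC-6 and not in MOLM-13. For these 6 genes the values of A9 against vehicle are therefore given as a description, with no test, and tests are kept to the comparison of the lines under DMSO and to other genes.

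MOLM-13 and MONO-MAC-6 are established AML lines, each labelled as wild type (WT), and each group comes from that 1 line. There were 4 groups, namely MOLM-13 with DMSO, MOLM-13 with A9 at 0.125 µM, MONO-MAC-6 with DMSO and MONO-MAC-6 with A9 at 0.25 µM, all collected after 72 h. DMSO is the solvent and served as the vehicle control in both lines. A9 is labelled a PROTAC, a class of small molecule that brings a protein to an E3 ubiquitin ligase for degradation. The design text names IKK2 and NR4A1 as the proteins it degrades, and the series title names IKK1 and NR4A1. Each group held 9 libraries, which were averaged in sets of 3 into 3 samples per group. Because the dose was not the same in the 2 lines, line and dose cannot be told apart when their responses are compared. Levels are in TPM, the share of a transcript among all transcripts after correction for length, scaled to a sum of 1000000 in each library, so that genes can be set beside each other.

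AHR is a transcription factor that waits in the cytoplasm in a complex with HSP90 and co-chaperones until a ligand, such as a dioxin, a plant indole or a tryptophan metabolite, binds it. It then enters the nucleus, pairs with ARNT and binds xenobiotic response elements, whose core reads GCGTG. Its classical targets are the cytochrome P450 genes CYP1A1 and CYP1B1, together with AHRR and TIPARP, whose products hold the receptor in check, and in monocytes and macrophages the pathway is known for tuning inflammation and differentiation.

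The myeloid label of the lines was checked on 12 myeloid markers, of which 8 or 9 reached a mean of 1 TPM in each group. Their summed level was 803 to 854 TPM in MOLM-13 with DMSO and 1013 to 1134 TPM with A9. In MONO-MAC-6 it was 4344 to 5219 TPM with DMSO and 9122 to 9359 TPM with A9. Most of the last sum was lysozyme (LYZ), at 3413 TPM on average with DMSO and 7681 TPM with A9. The progenitor marker KIT was at 0 in every MONO-MAC-6 sample. Of 13 markers of other lineages, 3 or 4 reached 1 TPM in a group, and the T cell, B cell and red cell markers CD3E, MS4A1 and HBB were at 0 in every sample. The summed level of these 13 was 58.7 to 141 TPM in MONO-MAC-6 with DMSO and 206 to 229 TPM with A9, most of it PECAM1, an adhesion molecule that monocytes also carry. The summed myeloid markers were thus higher in all A9 samples than in all DMSO samples of both lines, mostly through LYZ. Without LYZ the sum was 682 to 716 TPM with DMSO and 696 to 792 TPM with A9 in MOLM-13, and 1276 to 1671 and 1491 to 1571 TPM in MONO-MAC-6, which overlapped in both lines. Besides LYZ, the markers CD33, SPI1, CEBPA and CSF1R were higher with A9 without overlap in both lines, CSF1R at means of at most 1.17 TPM. CD14 was so in MONO-MAC-6 alone, at 2.66 to 3.71 TPM with DMSO and 12.4 to 13.5 TPM with A9. CD34 was so in MOLM-13 alone, at under 1 TPM. Such a separation was not rare, since 27.2% of the genes tested in MONO-MAC-6 were higher without overlap. For MOLM-13 that share was 8.59%. FLT3 was lower on average with A9, at 71.6 against 52.3 TPM in MOLM-13 and 764 against 650 TPM in MONO-MAC-6, with overlap, as were ITGAM in MOLM-13 and MPO in MONO-MAC-6. The part of these markers in the values below was not tested. In such bulk RNA, more RNA per cell and more cells that carry it cannot be told apart.

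The sequence that separates the longest CYP1B1 transcript from the short CYP1B1-201 is shown first, because most of the difference in CYP1B1 lay in the longest one. CYP1B1 lies on the minus strand of chromosome 2, at chr2:38066973-38109902 (GRCh38, GENCODE 29). CYP1B1-205 (ENST00000610745) is 5250 bases long in 3 exons, whereas CYP1B1-201 (ENST00000490576) is 567 bases long in 2 exons and ends within exon 2 of the longer transcript. The junction of exons 2 and 3 therefore occurs in CYP1B1-205 and not in CYP1B1-201. It joins base 38074346 to base 38071310, both in the coding region, and is given here as 20 bases on each side from GENCODE 29, with exon 3 in capitals. Of all GENCODE 29 transcripts, 3 hold it, and all 3 belong to CYP1B1. The other two held under 10% of the gene's TPM in every group.
CYP1B1 exons 2 and 3: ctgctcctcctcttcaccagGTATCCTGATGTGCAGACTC

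The core GCGTG was searched on both strands in the RefSeq windows (GRCh38.p14) that run from 250 bases before to 50 bases after each annotated start. The matches are shown because the receptor binds DNA through this core, and each is a run of letters, not a measured site. The core occurred in 36.5% of 35116 windows, so a match is common, and the longer form TNGCGTG, which contains it, occurred in 5.51%. AHR (chr7:16916359-17346152, plus strand) had 1 match, CYP1A1 (chr15:74719542-74725610, minus strand) had 1, and ARNT (chr1:150809705-150876768, minus strand) had 0. AHRR (chr5:304176-438291, plus strand) had 1 match in its first window, which was also the longer form, and 2 in its second. TIPARP (chr3:156673235-156706770, plus strand) had 2 matches in the first of its 3 windows, both on the opposite strand, where the core reads CACGC. CYP1B1 was not searched. The matches of AHRR (first window), CYP1A1 and TIPARP are given with up to 10 bases on each side, read along the gene's strand, with the core in capitals.
AHRR, chr5:321674-321698, plus strand: cgggcggctcGCGTGccggggtggg
CYP1A1, chr15:74725571-74725595, minus strand: agggaaggagGCGTGgccacacgta
TIPARP, chr3:156674372-156674396, plus strand: cgagaaaggaCACGCcccctcgcgg
TIPARP, chr3:156674438-156674462, plus strand: aacgaacgcgCACGCgcgcgcaggg

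Without A9, the receptor was more abundant in MONO-MAC-6 than in MOLM-13, while its repressor was less abundant. AHR stood at 1.82, 1.85 and 1.17 TPM in the 3 MOLM-13 samples with DMSO. In MONO-MAC-6 with DMSO it stood at 5.73, 11.7 and 14.2 TPM. Every MONO-MAC-6 sample was thus above every MOLM-13 sample, as was so for 34.9% of the tested genes, with the reverse for 24.2%. On the log2(TPM + 1) scale used for all tests the difference was 2.07 ± 0.32 (SE, n = 3 per line; limma, Benjamini-Hochberg adjusted p = 0.00256), and the adjusted p stayed between 0.000137 and 0.0139 when any 1 of the 6 samples was left out. In that comparison 48.8% of 12920 genes passed the threshold of 0.05, 30.4% as higher and 18.4% as lower in MONO-MAC-6, so a difference between the lines was common. The 2 lines stand in separate deposited tables, so line and table cannot be told apart.

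AHRR, a receptor-like protein that competes with AHR for ARNT, went the other way. It was at 54.8, 37.8 and 28.3 TPM in MOLM-13 with DMSO and at 7.57, 10.2 and 13.97 TPM in MONO-MAC-6 with DMSO. The lowest MOLM-13 sample was above the highest MONO-MAC-6 sample. The difference was -1.82 ± 0.30 (SE, n = 3 per line; limma, adjusted p = 0.00321), with an adjusted p between 0.00461 and 0.0157 when 1 sample was left out. AHRR overlaps PDCD6 on the same strand, and reads from the shared part could be assigned to either gene.

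ARNT, the partner that AHR shares with the hypoxia factors, was at 37.5, 24.4 and 17.6 TPM in MOLM-13 and at 10.0, 26.5 and 37.3 TPM in MONO-MAC-6, both with DMSO. These ranges overlapped almost wholly, and the difference of -0.22 ± 0.51 did not pass the test (SE, n = 3 per line; limma, adjusted p = 0.755). TIPARP, a mono-ADP-ribosyltransferase that marks AHR for removal, was at 6.58, 5.54 and 4.46 TPM in MOLM-13 and at 5.29, 9.34 and 9.99 TPM in MONO-MAC-6. The groups overlapped through MONO-MAC-6 sample 1, and the difference of 0.47 ± 0.26 did not pass (limma, adjusted p = 0.184). Without that sample it was 0.72 and passed (limma, adjusted p = 0.0121, in a range from 0.0121 to 0.409 when each sample was dropped in turn).

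The target genes are given here as a description. CYP1B1, an enzyme that hydroxylates oestrogens and polycyclic hydrocarbons, was at 0.598, 1.17 and 1.05 TPM in MOLM-13 with DMSO and at 11.4, 9.62 and 6.55 TPM in MONO-MAC-6 with DMSO. CYP1A1, its relative and the most inducible AHR target in many tissues, was at 0.0232, 0.0136 and 0 TPM in MOLM-13 and at 0.485, 0.627 and 0.692 TPM in MONO-MAC-6. In both genes every MONO-MAC-6 sample was above every MOLM-13 sample. CYP1A1 was below a mean of 1 TPM in every group and so was not tested.

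**Figure D1:**
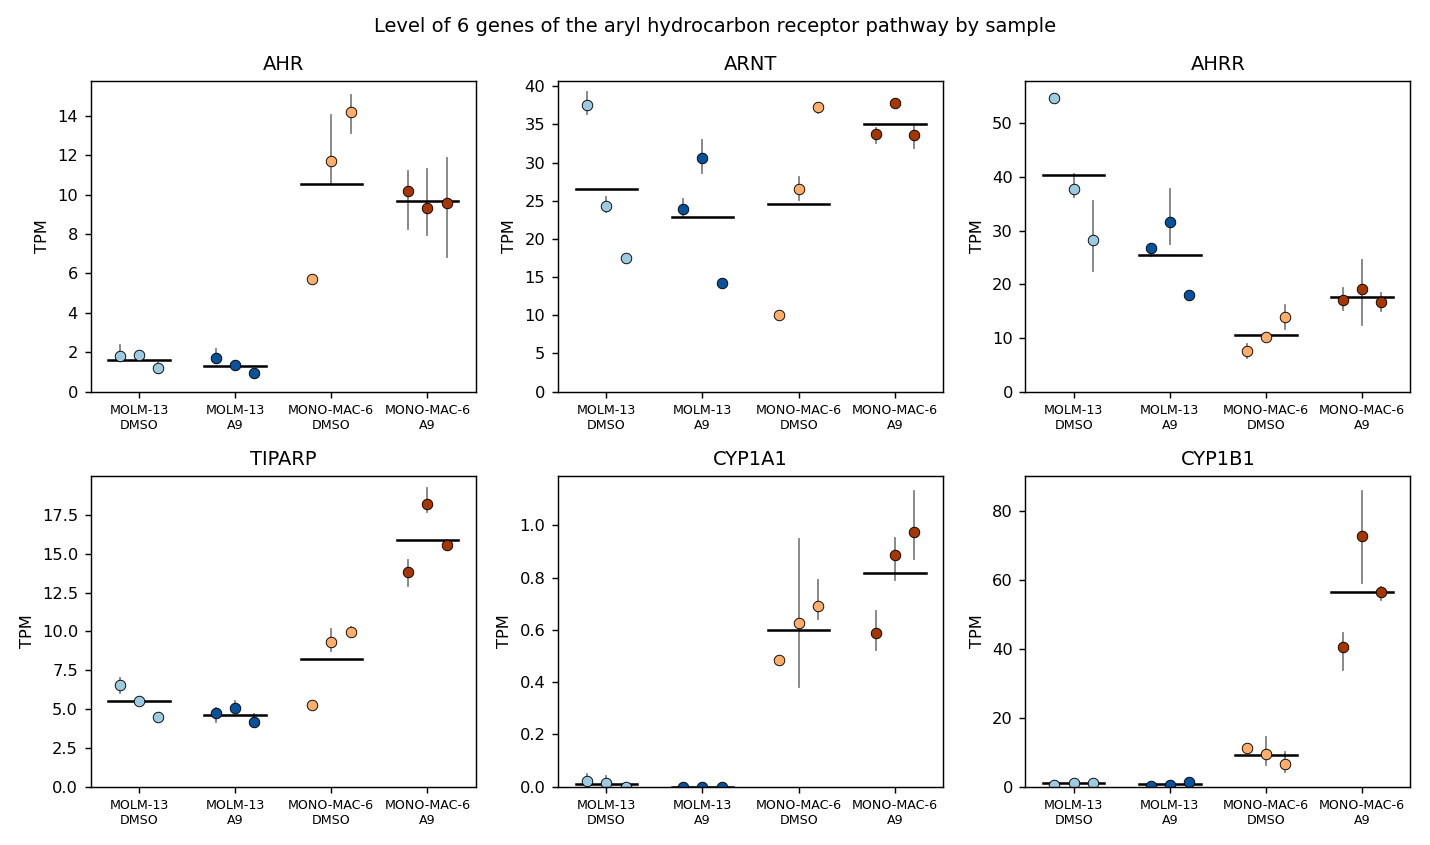
Level of each of the 6 genes in TPM (linear axes, different ranges), with 1 point per sample, thin vertical lines for the range of the 3 libraries behind it and a horizontal bar for the group mean (n = 3). CYP1B1 reaches 40.6 to 72.9 TPM in MONO-MAC-6 with A9 against 6.55 to 11.4 TPM with DMSO, whereas AHR overlaps between treatments in both lines.

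With A9, CYP1B1 was the gene of the 6 with the largest difference, in MONO-MAC-6. It was at 11.4, 9.62 and 6.55 TPM in the 3 DMSO samples and at 40.6, 72.9 and 56.5 TPM in the 3 A9 samples. The lowest A9 sample was above the highest DMSO sample, and the single libraries did not overlap either, with a range of 4.39 to 14.3 TPM for DMSO and 33.97 to 85.9 TPM for A9. The group means were 9.19 ± 2.45 and 56.7 ± 16.2 TPM (SD, n = 3), a ratio of 6.17. The difference was 2.49 ± 0.27 (SE) on the log2 scale, which placed CYP1B1 at rank 13 of the 12869 genes tested there when ordered from the most increased. Because the list was selected on this rise, the rank is a description only. Leaving out any 1 sample gave 2.29 to 2.71.

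In MOLM-13, CYP1B1 was at 0.598, 1.17 and 1.05 TPM with DMSO and at 0.172, 0.516 and 1.29 TPM with A9. The A9 samples spanned the whole DMSO range. The group means of 0.941 ± 0.303 and 0.659 ± 0.572 TPM (SD, n = 3) lay below the filter of 1 TPM, so the gene did not enter the fit of this line. The log2 difference in MONO-MAC-6 minus that in MOLM-13 was 2.76, again as a description, and it ranged from 2.54 to 3.02 when 1 of the 12 samples was left out. A test of such a difference was passed by 2.99% of 13408 genes and is not given for CYP1B1.

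**Figure D2:**
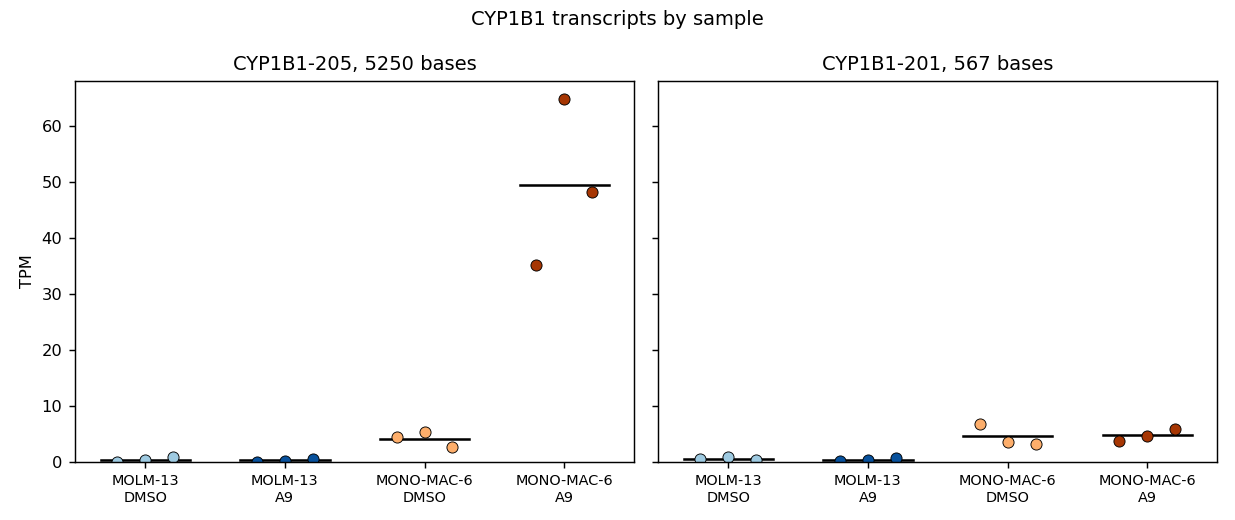
TPM of the CYP1B1 transcripts CYP1B1-205 (left) and CYP1B1-201 (right) in each sample, on a shared linear axis, with a horizontal bar for the group mean (n = 3). CYP1B1-205 reaches 35.1 to 64.8 TPM in MONO-MAC-6 with A9, and CYP1B1-201 stays between 3.26 and 6.83 TPM in MONO-MAC-6 with or without A9.

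The transcripts of CYP1B1 did not move alike. In MONO-MAC-6, CYP1B1-205 was at 4.47, 5.25 and 2.68 TPM with DMSO and at 35.1, 64.8 and 48.2 TPM with A9, a ratio of means of 11.95. CYP1B1-201, which lacks the junction printed above, was at 6.83, 3.47 and 3.26 TPM with DMSO and at 3.76, 4.62 and 5.78 TPM with A9. Its groups overlapped, and its ratio of means was 1.04. The longer transcript therefore made up 39.2%, 54.5% and 40.9% of the gene's TPM in the 3 DMSO samples and 86.5%, 88.8% and 85.4% in the 3 A9 samples. In the group means CYP1B1-201 took the larger share in MONO-MAC-6 with DMSO (49.2% against 45.0%) and CYP1B1-205 with A9 (8.33% against 87.1%). In MOLM-13 the share of the longer transcript ran from nearly 0 to 72.0% in single samples, at gene totals of at most 1.29 TPM.

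For single transcripts with the same filter, 23.4% of 48474 were higher in all A9 samples than in all DMSO samples of MONO-MAC-6, and 7.63% were lower. Both exons of CYP1B1-201 lie wholly within exons 1 and 2 of CYP1B1-205, and only the junction between them is its own. Reads inside these exons therefore fit both transcripts, and how they were shared out is not given in the sources used here. The split of the gene's TPM between the transcripts is uncertain for that reason. CYP1B1-AS1 (chr2:38073447-38231651) overlaps exons 1 and 2 of CYP1B1-205 from the other strand but not exon 3. Since strandedness is not stated, sense and antisense reads cannot be told apart there. RMDN2 overlaps the 3′ end of the gene from that strand, but reaches neither CYP1B1-205 nor CYP1B1-201.

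The partner genes changed less. AHR itself in MONO-MAC-6 was at 5.73, 11.7 and 14.2 TPM with DMSO and at 10.2, 9.30 and 9.56 TPM with A9. All 3 A9 samples lay inside the DMSO range, and the difference was -0.03 ± 0.30 (SE, n = 3 per group). Dropping single samples gave -0.38 without DMSO sample 1 and up to 0.21 without DMSO sample 3, so no direction can be given. In MOLM-13, AHR was at 1.82, 1.85 and 1.17 TPM with DMSO and at 1.69, 1.34 and 0.935 TPM with A9, a difference of -0.18 ± 0.18 with overlapping samples. The receptor RNA thus overlapped between treatments in the line where CYP1B1 did not.

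ARNT in MONO-MAC-6 was at 10.0, 26.5 and 37.3 TPM with DMSO and at 33.7, 37.7 and 33.6 TPM with A9. The groups overlapped, and the difference of 0.67 ± 0.44 rested on DMSO sample 1, without which it was 0.15. In MOLM-13 the DMSO samples were at 37.5, 24.4 and 17.6 TPM and the A9 samples at 23.9, 30.6 and 14.2 TPM, a difference of -0.20 ± 0.35. That sign turned to 0.07 without DMSO sample 1 and to 0.09 without A9 sample 3.

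AHRR had differences of opposite sign in the 2 lines. In MONO-MAC-6 it was at 7.57, 10.2 and 13.97 TPM with DMSO and at 17.1, 19.1 and 16.6 TPM with A9, so that every A9 sample was above every DMSO sample. The difference was 0.72 ± 0.21, and 0.52 without DMSO sample 1. In MOLM-13 it was at 54.8, 37.8 and 28.3 TPM with DMSO and at 26.8, 31.7 and 18.02 TPM with A9, with a difference of -0.63 ± 0.29. A9 sample 2 lay above DMSO sample 3, so the gene totals of the groups overlapped.

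The longest AHRR transcript, AHRR-201 (5661 bases), separated the MOLM-13 groups that the gene total did not. It was at 16.7, 15.9 and 14.5 TPM with DMSO and at 10.7, 12.1 and 12.8 TPM with A9, where 5.47% of 40728 transcripts were lower and 7.12% higher without overlap. In MONO-MAC-6 the same transcript was at 2.66, 2.42 and 2.81 TPM with DMSO and at 3.72, 5.95 and 4.77 TPM with A9. Short AHRR transcripts of 435 to 576 bases carried much of the spread between samples. AHRR-206, for example, was at 11.5, 6.396 and 3.62 TPM in the MOLM-13 samples with DMSO.

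TIPARP followed CYP1B1 in direction, at a smaller size. In MONO-MAC-6 it was at 5.29, 9.34 and 9.99 TPM with DMSO and at 13.8, 18.2 and 15.6 TPM with A9, without overlap. The difference was 0.91 ± 0.24, and 0.65 without DMSO sample 1. Its main transcript TIPARP-201 went from 1.35, 7.85 and 7.56 TPM to 11.3, 15.4 and 13.1 TPM, while the shorter TIPARP-206 overlapped between the groups. In MOLM-13 the gene was at 6.58, 5.54 and 4.46 TPM with DMSO and at 4.72, 5.08 and 4.14 TPM with A9, a difference of -0.20 ± 0.16 with overlap.

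CYP1A1 stayed close to 0 throughout. In MONO-MAC-6 it was at 0.485, 0.627 and 0.692 TPM with DMSO and at 0.588, 0.885 and 0.976 TPM with A9, which overlapped. In MOLM-13 it was at 0.0232 TPM at most with DMSO and listed at 0 in all 3 A9 samples. The pair of classical targets thus stood far apart in MONO-MAC-6 with A9, with CYP1B1 at 56.7 ± 16.2 TPM and CYP1A1 at 0.816 ± 0.203 TPM (SD, n = 3).

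**Figure D3:**
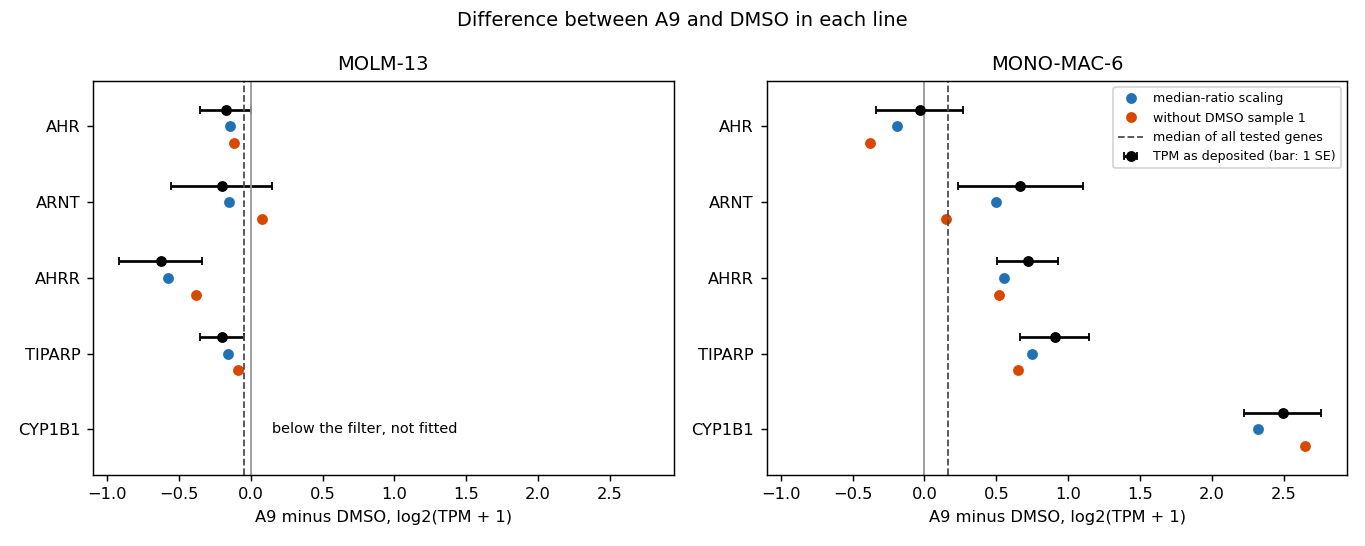
Difference between A9 and DMSO in log2(TPM + 1) for the 5 genes that passed the filter in a line, with values as deposited (black, bar of 1 SE from limma), after median-ratio scaling (blue) and without DMSO sample 1 (orange); the dashed line is the median of all tested genes. CYP1B1 lies at 2.32 to 2.65 in MONO-MAC-6, and ARNT there falls from 0.67 to 0.15 without DMSO sample 1.

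Of the 5 genes fitted in MONO-MAC-6, 3 were higher in all A9 samples than in all DMSO samples, namely CYP1B1, TIPARP and AHRR, where 27.2% of all 12869 tested genes were so and 10.7% were lower without overlap. In MOLM-13 the groups of all 4 fitted genes overlapped, where 8.59% of 11596 genes were higher and 6.42% lower without overlap. Because the gene list was built on these contrasts, nothing is read from these counts. The median difference of all genes was 0.16 in MONO-MAC-6 and -0.05 in MOLM-13. Scaling each sample by median ratios brought the former to 0.0070, and gave 2.32 for CYP1B1, 0.75 for TIPARP, 0.55 for AHRR, 0.50 for ARNT and -0.19 for AHR.

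Single samples moved many of these genes at once. MONO-MAC-6 DMSO sample 1 was the lowest of its group for AHR, ARNT, AHRR, TIPARP and CYP1A1, and the highest for CYP1B1. In MOLM-13, sample 3 was the lowest for AHR, ARNT, AHRR and TIPARP within both the DMSO and the A9 group. The CYP1B1 difference in MONO-MAC-6 was 2.65 without DMSO sample 1, so that it was no smaller without it.

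The order of the 6 levels changed with A9 in MONO-MAC-6. With DMSO, ARNT was highest at 24.6 ± 13.7 TPM (SD, n = 3), followed by AHRR at 10.6 ± 3.2, AHR at 10.6 ± 4.4, CYP1B1 at 9.19 ± 2.45 and TIPARP at 8.21 ± 2.55 TPM, and these 5 overlapped with their neighbours. CYP1A1 was lowest at 0.601 ± 0.106 TPM, below every sample of the others. With A9, CYP1B1 was highest at 56.7 ± 16.2 TPM, and its lowest sample was above the highest sample of ARNT at 35.0 ± 2.4 TPM. AHRR at 17.6 ± 1.3 TPM and TIPARP at 15.9 ± 2.2 TPM overlapped with each other, and AHR at 9.68 ± 0.45 TPM and CYP1A1 lay below both without overlap.

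In MOLM-13 the order was the same with and without A9. AHRR was highest, at 40.3 ± 13.4 TPM with DMSO and 25.5 ± 6.9 TPM with A9 (SD, n = 3). ARNT came next, at 26.5 ± 10.2 and 22.9 ± 8.2 TPM, and its samples overlapped with those of AHRR in both groups. TIPARP at 5.52 ± 1.06 and 4.64 ± 0.47 TPM lay below both. AHR at 1.62 ± 0.39 and 1.32 ± 0.38 TPM was next, and its samples overlapped those of CYP1B1 in both groups. CYP1A1 was lowest, below every sample of the others.

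Other genes of the pathway were taken from 7 lists with 80 genes, which cover the receptor complex, the bHLH-PAS relatives and partners of AHR, the tryptophan enzymes that make AHR ligands, the xenobiotic battery, other reported targets, P450 redox and steroid handling, and the PARP family to which TIPARP belongs. In MONO-MAC-6, 60 of the 80 could be tested, and 3 were higher and 0 lower with A9 (5.0%, beside 3.36% of all tested genes; limma). An unadjusted p under 0.05 (limma) was found for 23 of the 60, beside 2633 of all 12869 tested genes. The count of list genes called was 30 without DMSO sample 1, where 3204 of all 12924 tested genes were called. Without any other single sample it was 0 or 1, where 59 to 210 of all genes were called. The median difference of the 60 was 0.27, beside 0.16 over all genes. Of the 60, 3 (EPAS1, SERPINB2 and TNKS) reached the filter of 1 TPM through the A9 group alone, and without them 2 of 57 were higher (3.51%, beside 2.9% of all genes with both groups at 1 TPM), a restriction chosen after seeing the data.

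EPHX1, the microsomal epoxide hydrolase that acts on products of P450 enzymes, rose from 11.5 ± 1.3 to 24.4 ± 3.1 TPM (SD, n = 3), a difference of 1.02 ± 0.14 (SE; limma, adjusted p = 0.0183). FOS, a subunit of the transcription factor AP-1, rose from 28.5 ± 5.9 to 52.6 ± 2.0 TPM (0.88 ± 0.16; limma, adjusted p = 0.0392). In both genes every A9 sample was above every DMSO sample. The calls were not stable to single samples, and when each of the 6 samples was dropped in turn, EPHX1 passed in 2 and FOS in 1, with adjusted p up to 0.133 and 0.210. With the replicate number as a block neither passed (limma, adjusted p = 0.0683 and 0.0986). The third gene, EPAS1, the hypoxia factor HIF-2α and a partner of ARNT, was at 0.260, 0.855 and 0.588 TPM with DMSO and at 1.85, 2.33 and 3.13 TPM with A9. These are given as values only, since EPAS1 was analysed through its A9 level alone.

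The other lists held no call with A9 in MONO-MAC-6. Their counts at an unadjusted p under 0.05 stand beside 2633 of all 12869 tested genes (limma). In the receptor complex, 0 of 5 passed and 2 had an unadjusted p under 0.05 (limma). The difference was -0.32 for HSP90AA1 and -0.05 for HSP90AB1, the chaperones that hold AHR in the cytoplasm, and -0.12 for their co-chaperone PTGES3. That of the tyrosine kinase SRC was 0.46. Of 10 tested genes of tryptophan ligand supply 0 passed, with a median of 0.08 and 5 at an unadjusted p under 0.05. Of 4 tested genes of the xenobiotic battery 0 passed, with differences from -0.40 to 0.54 and 2 at an unadjusted p under 0.05. Of 15 PARP family genes 0 passed, with a median of 0.39 beside 0.16 for all genes and 3 at an unadjusted p under 0.05. In MOLM-13, 53 of the 80 could be tested and 0 passed, beside 0.121% of all 11596 genes (limma). An unadjusted p under 0.05 was found for 3 of the 53, beside 915 of the 11596 (limma). The median difference of the 53 was -0.08.

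**Figure D4:**
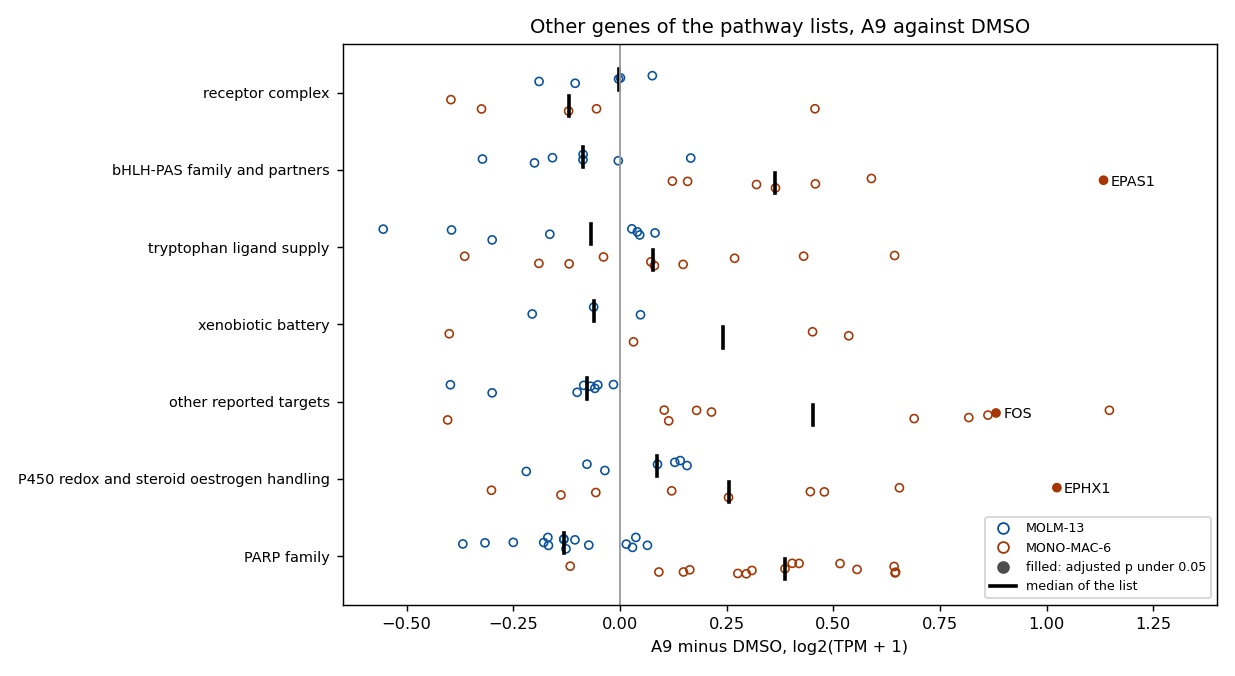
Difference between A9 and DMSO in log2(TPM + 1) for each tested gene of the 7 lists in MOLM-13 (blue, 53 genes) and MONO-MAC-6 (brown, 60 genes), with the list median as a black bar and filled points for an adjusted p under 0.05 (limma). The 3 filled points are EPAS1, FOS and EPHX1 in MONO-MAC-6, of which EPAS1 reached the filter of 1 TPM through the A9 group alone.

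Under DMSO the lines differed in many of these genes, of which 59 could be tested. In MONO-MAC-6, 19 were higher and 12 lower (52.5%, beside 48.8% of all tested genes; limma). Of the 59, 8 reached 1 TPM in 1 line alone, and among the other 51 there were 13 higher and 10 lower (45.1%, beside 42.0% of all genes with both lines at 1 TPM). Of 8 such genes of tryptophan ligand supply, 4 were higher and 2 lower. KYNU, the kynureninase that breaks kynurenine down, was at 32.5 ± 1.8 TPM in MOLM-13 and 1.08 ± 0.10 TPM in MONO-MAC-6 (SD, n = 3; -4.01 ± 0.12 SE; limma, adjusted p = 3.78e-06). IL4I1 and TDO2 reached 1 TPM in MONO-MAC-6 alone and are given as values. IL4I1, an amino acid oxidase whose products can activate AHR, was at 0.690, 0.756 and 0.481 TPM in MOLM-13 and at 13.1, 12.1 and 13.2 TPM in MONO-MAC-6. TDO2, a tryptophan dioxygenase at the head of the kynurenine route, was at most 0.0571 TPM in MOLM-13 and at 1.57 to 2.62 TPM in MONO-MAC-6.

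Of the bHLH-PAS relatives and partners, RELB, an NF-kB subunit that can bind AHR, was higher in MONO-MAC-6 by 1.24 ± 0.12 (SE, n = 3 per line; limma, adjusted p = 0.000289). KYNU and RELB passed whichever of the 6 samples was dropped. EPAS1, which reached 1 TPM in MOLM-13 alone, was at 7.87 to 12.5 TPM there and at 0.260 to 0.855 TPM in MONO-MAC-6. Among the electron donors of P450 enzymes, CYB5A (cytochrome b5) reached 1 TPM in MONO-MAC-6 alone, at 75.2 to 80.2 TPM there against 0.213 to 0.404 TPM in MOLM-13. In these 4 genes with 1 line above the filter, IL4I1, TDO2, EPAS1 and CYB5A, the samples of the lines did not overlap.

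CYP1B1 was next set beside the other cytochrome P450 genes. Of 104 genes whose symbol starts with CYP and a digit, 16 reached a mean of 1 TPM in a group. Besides CYP1B1, 7 had a mean of at least 1 TPM in both MONO-MAC-6 groups, and 1 of these was higher and 0 lower with A9. Of all 12102 genes with both groups at 1 TPM, 255 were higher and 96 lower (2.9% in either direction). CYP27A1, the sterol hydroxylase of mitochondria, was at 12.2, 12.8 and 14.4 TPM with DMSO and at 49.8, 63.2 and 56.6 TPM with A9. Its difference of 2.02 ± 0.13 (SE; limma, adjusted p = 0.00136) passed whichever of the 6 samples was dropped. CYP2T1P, a pseudogene that reached 1 TPM in this A9 group alone, was at 0.349, 0.461 and 0.561 TPM with DMSO and at 1.58, 2.51 and 1.54 TPM with A9, given as values only. In MOLM-13, 0 of 11 tested P450 genes passed, beside 14 of all 11596 genes (limma). An unadjusted p under 0.05 was found for 2 of the 11, beside 915 of the 11596 (limma).

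The genes whose profile was most like that of CYP1B1 were sought over the 12 samples, by the Pearson correlation of log2(TPM + 1) among the 10068 genes whose mean reached 5 TPM in any group. They were CD14 (0.990), NCF4 (0.988), TYMP (0.987), IFI30 (0.986) and CXCL8 (0.985), of which CD14 and CXCL8 reached 5 TPM in MONO-MAC-6 with A9 alone. These coefficients describe 4 groups rather than 12 independent conditions, and they are largely set by the order of the group means. CD14, for example, went from 3.14 ± 0.53 to 13.04 ± 0.55 TPM in MONO-MAC-6, and IFI30 from 37.4 ± 2.9 to 175 ± 16 TPM (SD, n = 3). In MOLM-13, IFI30 was at 6.64 TPM on average with DMSO and 6.77 TPM with A9, and CD14 at 0.295 and 0.335 TPM. Within the 6 genes, the coefficient with CYP1B1 was 0.94 for CYP1A1, 0.90 for TIPARP, 0.84 for AHR, 0.28 for ARNT and -0.58 for AHRR.

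For AHR the 5 most alike genes were others, namely RCHY1 (0.995), KDM5B (0.995), TXNDC5 (0.995), TRIT1 (0.994) and TM9SF2 (0.994), over the same 12 samples. Having been chosen for following AHR, they are described and not tested. RCHY1, for example, was at 61.6 ± 13.5 TPM with DMSO and 57.9 ± 0.2 TPM with A9 in MONO-MAC-6, against 23.0 TPM in MOLM-13 with DMSO (SD, n = 3).

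**Figure D5:**
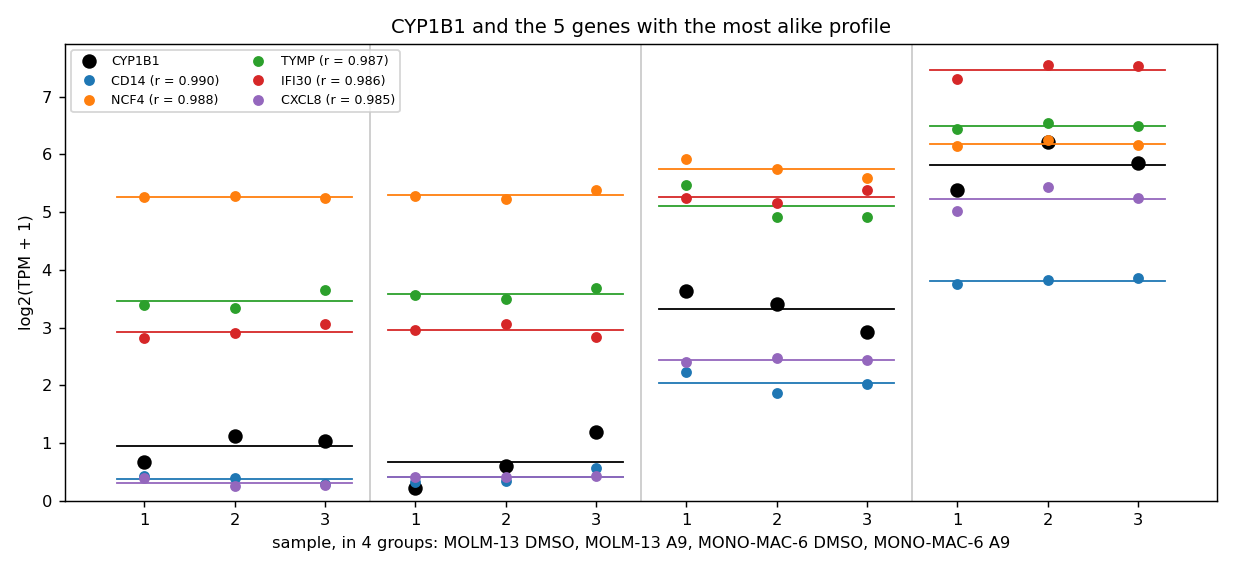
Level in log2(TPM + 1) of CYP1B1 (black) and of the 5 genes with the highest Pearson correlation to it over the 12 samples, with 1 point per sample and a line for each group mean (n = 3). All 6 genes are highest in the 3 MONO-MAC-6 samples with A9, given as a description because the 5 were chosen for following CYP1B1.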

How the data were processed

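Poly(A) RNA was sequenced in 36 libraries, 9 in each of 4 groups. The authors deposited TPM, abundances corrected for length and scaled to 1000000 per library, for each of 207175 Ensembl transcripts. The submitters' processing notes name kallisto, limma and GRCh38, with no version or role, and the annotation release is not given in the sources used here. The deposited values hold no counts, so the depth is unknown and no counting error can be stated.

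Of these transcripts, 162526 (78.4%) matched GENCODE 29 identifiers, with 89.8% to 91.4% of each library's TPM. They were summed to 35460 genes. Libraries with the same first number in the labels were averaged, giving 3 samples per group. Genes whose mean reached 1 TPM in a group of the fit were analysed on log2(TPM + 1) by limma 3.58.1 (R 4.3.3), using lmFit and a robust eBayes with an intensity trend. Two-sided p-values were corrected by Benjamini-Hochberg across every gene of the fit, with a threshold of 0.05. With 3 samples per group, exact permutation of labels gives no two-sided p below 0.1. The labels do not say whether samples came from separate cultures, so p-values measure only the spread between these samples, which may be technical.

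The fits compared A9 with DMSO in each line, the 2 differences with each other, and the lines under DMSO. The scripts were tested on simulated data. The 6 genes, the 7 pathway lists and the rules were chosen with earlier results of these data known. Besides the 6 genes, the text names up to 4 list genes per list and comparison past the threshold, CYP genes whose mean reached 1 TPM in any group, the 5 genes most alike to CYP1B1 and to AHR, and transcripts holding at least 10% of a gene in a group. Other pseudocounts, filters, scalings, library groupings, a length correction, a replicate block and each sample left out in turn were also tried.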

Additional observations from a re-analysis of the deposited data

Results flagged for a closer look

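The A9 effect in MONO-MAC-6 was set against that in MOLM-13 by the interaction term of limma over the 12 samples, which 2.99% of 13408 genes passed. The 6 genes of the report and those most like CYP1B1 were chosen for or by such a difference and are left out here. Of the other pathway and P450 genes, FOS, EPHX1 and HSP90AA1, a chaperone of the receptor complex, passed with means above 1 TPM in all 4 groups. The differences (MONO-MAC-6 minus MOLM-13, on the log2(TPM + 1) scale) were 0.98, 0.90 and -0.40 (limma, adjusted p = 0.0199, 0.0134 and 0.0161). HSP90AA1 did not pass in MONO-MAC-6 alone (limma, adjusted p = 0.0669) and was named after its values were seen. When 1 of the 12 samples was left out, EPHX1 passed in all 12 fits, HSP90AA1 in 8 and FOS in 6. CYP27A1 and IL4I1 reached 1 TPM in MONO-MAC-6 alone, so their differences of 1.96 and 0.58 are given as a description. Their means in MOLM-13 were 0.448 and 0.643 TPM with DMSO and 0.510 and 0.324 TPM with A9. IL4I1 did not pass in MONO-MAC-6 by itself (limma, adjusted p = 0.2203). In all of these genes line and dose cannot be told apart.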

How the results depend on the processing

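The CYP1B1 difference in MONO-MAC-6 kept its direction under all alternatives run. It was 2.22 to 2.61 under the other pseudocount, filters, scaling, library grouping and length correction, 2.29 to 2.71 when 1 sample was left out, and 3.29 for the highest transcript alone, an alternative chosen after seeing the data.

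Counts of called genes moved far more. In MOLM-13 the count of 14 became 4 with no filter, 1742 with every library its own sample, 5440 when averaged by the second number, 48 with median-ratio scaling, 177 after length correction and 87 with the replicate block, and 2 to 8 when 1 sample was left out. In MONO-MAC-6 the count of 433 became 254, 5585, 8703, 1195 (length) and 94 (replicate block) under those settings, and 59 to 3204 when 1 sample was left out, the highest without DMSO sample 1. For the difference between the lines the count of 401 became 5621, 8505, 743 (length) and 207 (replicate block), and 197 to 548 when 1 sample was left out. For the lines under DMSO the count of 6305 became 11052 when averaged by the second number, and 4642 to 8061 when 1 sample was left out. The cause was not tested.

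The share of MONO-MAC-6 calls that were higher was 74.6% as deposited, 61.5% with median-ratio scaling and 53.2% with the length trend removed. For the lines under DMSO it was 62.2%, 52.2% and 50.3%, and for the difference between the lines 64.3%, 54.7% and 45.5%. The pathway genes called in MONO-MAC-6 were 6 of 60 with scaling, 11 of 60 after length correction and 0 of 60 with the replicate block. Over all 12869 genes the calls were 553, 1195 and 94 in that order. With no filter 1 pathway gene was called, beside 254 of all 25812 genes. Among genes with both groups at 1 TPM, 2 of 57 were called, beside 2.9% of all 12102. When 1 sample was left out, 0 to 30 pathway genes were called, beside 59 to 3204 of all genes. Same-numbered samples did not deviate together throughout (correlations 0.36, -0.08 and 0.68 in MOLM-13 and -0.03, 0.09 and -0.09 in MONO-MAC-6). With 3 samples per group, whether the numbers pair the samples cannot be told from these values. TPM hold no depth, so levels near 0, such as those of CYP1A1, carry an unknown error. Of the other values recomputed, 586 kept their side of the threshold or moved by less than the spread, 39 no longer passed, 5 newly passed and 20 moved further, and no called value changed sign.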
